A study of Mus musculus with 18 samples.

Results

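The levels of 10 genes, the kinases and core effectors of the integrated stress response, were measured by RNA sequencing in mouse bone marrow-derived macrophages (BMDM). They are the 4 eIF2α kinases (*Eif2ak1*, *Eif2ak2*, *Eif2ak3*, *Eif2ak4*), the transcription factors *Atf4*, *Atf3*, *Ddit3* and *Cebpg*, and the feedback genes *Trib3* and *Ppp1r15a*. The genes were chosen by name, through the GRCm38 annotation of the Ensembl identifiers, with positions on that build, from 55385 listed genes, and all 10 were among the 14979 genes with enough counts to be tested. The cells came from 12-week-old female C57BL/6J mice, 3 individuals as the labels state, and were grown to day 7 in medium with L-929 culture supernatant. All groups shared this background, and the same vehicle, 0.1% DMSO, was the control of both inhibitors. The Veh groups received vehicle, the HC3 groups 250 µM hemicholinium-3 (HC3), which blocks choline uptake, and the RSM groups 5 µM RSM-932a (RSM), which inhibits choline kinase, each for 24 h. For a further 24 h the cells either stayed naïve, called M[0], or received IL-4 at 20 ng/mL, called M[IL-4], which gives 6 groups of 3 libraries each and 18 in all. These are cells cultured outside the animal, and each inhibitor was sequenced at a single dose and time.

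In the integrated stress response, 4 kinases phosphorylate the initiation factor eIF2α: HRI (*Eif2ak1*), PKR (*Eif2ak2*), PERK (*Eif2ak3*) and GCN2 (*Eif2ak4*), which respond to heme shortage and mitochondrial stress, double-stranded RNA, unfolded protein in the endoplasmic reticulum, and uncharged tRNA, in that order. Phosphorylated eIF2α blocks its exchange factor eIF2B, so most translation falls while the *Atf4* mRNA is translated better. ATF4 protein then activates genes of amino acid supply and redox balance together with the members *Ddit3* (CHOP), *Atf3*, *Trib3* and *Ppp1r15a*. RNA counts measure neither phosphorylation nor ATF4 protein, so all values below are mRNA levels.

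Libraries held 17457796 to 19522255 counts each, and the lowest count of any member was 45, for *Trib3* in a vehicle library. Levels are in CPM, edgeR's depth-scaled counts with TMM factors, given per library in the order of replicates 1 to 3 or as mean ± SD (n = 3). Differences are log2 fold changes from edgeR's quasi-likelihood test across all genes, with the Benjamini-Hochberg FDR, and a gene was called when the FDR was under 0.05 and the log2 fold change reached 1 in either direction. The labels do not tie libraries to mice, so p-values measure the spread between these libraries, part of which may be technical. Mitochondrial transcripts made up 1.77% (Veh), 3.39% (HC3) and 0.794% (RSM) of the counts of the median M[0] library. For M[IL-4] these shares were 1.86%, 2.51% and 0.718%, in the same order.

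Of the promoters of these genes, those of 5 members and of *Chac1*, an ATF4 target described further on, are shown, because *Atf4*, *Ddit3*, *Trib3*, *Ppp1r15a* and *Chac1* rose with both inhibitors and *Atf3* did not. The sequences are the 250 bases before the RefSeq transcript start (GRCm38.p6), 5′ to 3′ on the gene's strand. Capitals mark matches on either strand to TGATGNAAN (the core of the C/EBP-ATF composite element that ATF4 dimers bind), TGACGTCA (the cAMP response element), TGACTCA (an AP-1 site) or CCAAT (the NF-Y box). No marked matches overlap one another.
Atf4 (chr15:80254934-80255183, plus strand): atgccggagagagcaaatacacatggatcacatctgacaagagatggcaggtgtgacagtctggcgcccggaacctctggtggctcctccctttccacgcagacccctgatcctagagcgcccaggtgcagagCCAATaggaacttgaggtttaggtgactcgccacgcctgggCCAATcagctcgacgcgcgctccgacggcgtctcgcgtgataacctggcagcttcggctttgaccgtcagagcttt
Atf3 (chr1:191183334-191183583, minus strand): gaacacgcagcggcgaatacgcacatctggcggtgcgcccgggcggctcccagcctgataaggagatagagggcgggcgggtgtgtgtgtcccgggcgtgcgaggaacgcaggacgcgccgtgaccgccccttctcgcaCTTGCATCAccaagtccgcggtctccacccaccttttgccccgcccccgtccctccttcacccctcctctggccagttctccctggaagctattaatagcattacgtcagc
Ddit3 (chr10:127290543-127290792, plus strand): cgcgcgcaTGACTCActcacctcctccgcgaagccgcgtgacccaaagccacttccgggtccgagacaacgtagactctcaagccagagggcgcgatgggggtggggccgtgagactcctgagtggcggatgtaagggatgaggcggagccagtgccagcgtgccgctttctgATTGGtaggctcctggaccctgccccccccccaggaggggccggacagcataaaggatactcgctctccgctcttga
Trib3 (chr2:152344061-152344310, minus strand): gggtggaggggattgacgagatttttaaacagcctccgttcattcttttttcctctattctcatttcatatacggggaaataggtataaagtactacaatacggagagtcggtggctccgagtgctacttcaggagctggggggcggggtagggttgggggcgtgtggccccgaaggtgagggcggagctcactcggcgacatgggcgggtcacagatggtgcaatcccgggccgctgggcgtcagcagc
Ppp1r15a (chr7:45526269-45526518, minus strand): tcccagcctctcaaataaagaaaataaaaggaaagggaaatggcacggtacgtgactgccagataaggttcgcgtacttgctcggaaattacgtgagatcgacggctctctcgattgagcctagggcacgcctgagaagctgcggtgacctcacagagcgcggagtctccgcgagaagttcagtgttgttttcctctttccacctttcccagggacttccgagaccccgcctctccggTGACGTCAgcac
Chac1 (chr2:119350992-119351241, plus strand): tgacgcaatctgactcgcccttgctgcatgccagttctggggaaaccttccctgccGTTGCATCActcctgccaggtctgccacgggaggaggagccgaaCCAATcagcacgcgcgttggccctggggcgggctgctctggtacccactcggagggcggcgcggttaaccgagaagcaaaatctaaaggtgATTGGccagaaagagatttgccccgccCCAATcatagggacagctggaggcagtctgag

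The TGATGNAAN letters stood in the *Atf3* stretch, 111 bases before the start, and in the *Chac1* stretch, 194 bases before it, both as the reverse complement. *Trib3* held none in these 250 bases and 1 just after the start, read as tttacatca on the gene's strand (chr2:152344039-152344047). The *Ppp1r15a* stretch held the cAMP response element 12 bases before the start, and the *Ddit3* stretch held an AP-1 site 242 bases before the start and a CCAAT box. *Atf4* held a pair of CCAAT boxes and none of the other letters. Among all 32851 promoter windows of the table (250 bases before to 50 after the start), TGATGNAAN was in 3.95%, TGACGTCA in 1.79%, TGACTCA in 5.20% and CCAAT in 37.4%. The longer endoplasmic reticulum stress element (ERSE), which contains the CCAAT box, was in 0.119% of all windows and in none of the members' windows. A match of letters says nothing of binding, and *Atf3*, which has the ATF4-type letters, was not among the genes that rose with an inhibitor. The 1 *Atf3* start used lies inside the annotated gene, which reaches chr1:191218039, so any start further upstream was not searched.

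The first question is how the inhibitors changed the transcription factors and feedback genes. *Trib3*, *Ddit3*, *Ppp1r15a* and *Atf4* were called higher with HC3 and with RSM in both polarizations, and no member was called lower. These 4 of 10 members compare with 5.93% of all genes called higher for HC3 and 5.05% for RSM in M[0]. For M[IL-4] the shares of all genes were 4.72% and 5.05%. *Cebpg* rose in all 4 comparisons by less than the fold threshold. *Atf3* did not rise in any. The comparisons of the inhibitors share their vehicle libraries, so their values are not independent of each other. An exact permutation test on 1 gene has a smallest possible p of 0.1 with 3 libraries a side, so all FDR values come from the fit across genes. The libraries of an inhibitor lay wholly above those of vehicle for these 4 genes and for *Cebpg*, as for 26.6% (HC3) and 25.8% (RSM) of all genes in M[0] and 22.2% and 23.7% in cells given IL-4.

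*Trib3* (chr2:152337422-152344032, minus strand) encodes a pseudokinase that is switched on by ATF4 and CHOP and dampens both. It had 2.49, 3.70 and 3.76 CPM in the Veh M[0] libraries, against 297, 319.8 and 329 CPM with HC3 and 281, 310.0 and 303 CPM with RSM. Vehicle *Trib3* was below 4 CPM in M[0], and every inhibitor library was above 280 CPM. In M[IL-4] it had 7.54, 5.86 and 7.78 CPM with vehicle, 342, 305 and 315 with HC3 and 350.4, 335 and 319.8 with RSM. These are fold changes of 94.9 for HC3 and 89.7 for RSM in M[0]. With IL-4 they were 45.3 and 47.3. The log2 fold changes had standard errors of 0.111 to 0.121.

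*Ddit3* (chr10:127290774-127296288, plus strand) encodes CHOP, a bZIP factor linked to cell death when the stress response lasts. Its levels were 14.5, 16.3 and 15.3 CPM in Veh M[0], 148, 165 and 151 CPM in HC3 M[0] and 115, 129.9 and 122 CPM in RSM M[0]. In M[IL-4] they were 20.2, 24.4 and 22.2 CPM with vehicle, 166, 174 and 153 with HC3 and 124, 136 and 110.1 with RSM. All inhibitor libraries lay far above all vehicle libraries of their polarization, and the HC3 libraries above the RSM libraries. HC3 libraries lay wholly above RSM libraries for 15.5% of all genes in M[0] and 13.0% in M[IL-4]. The log2 fold changes of *Ddit3* were 3.33 ± 0.0936 (SE) for HC3 and 2.99 ± 0.0930 for RSM in M[0]. With IL-4 they were 2.88 ± 0.0904 and 2.47 ± 0.0897. A second, 105-bp record of *Ddit3* in the annotation had no counts and covers 6.13% of the exon length used, and *Mars*, on the opposite strand, overlaps a further 3.97%.

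*Ppp1r15a* (chr7:45522916-45526268, minus strand) encodes GADD34, the stress-induced subunit that brings a phosphatase to eIF2α and so ends the response. It had 22.6, 27.5 and 23.4 CPM in Veh M[0], 141, 150.2 and 153 in HC3 M[0] and 88.7, 96.1 and 97.0 in RSM M[0]. In M[IL-4] the values were 23.0, 20.8 and 19.4 with vehicle, 145, 140.2 and 133 with HC3 and 94.1, 86.8 and 75.6 CPM with RSM. The 3 treatments separated without overlap in both polarizations, in the order vehicle, RSM, HC3. HC3 raised *Ppp1r15a* 6.05-fold in M[0] and 6.61-fold in M[IL-4], and RSM 3.83-fold and 4.05-fold.

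*Atf4* itself (chr15:80255184-80257541, plus strand), the factor at the centre of the response, had 153, 156 and 152 CPM in the Veh M[0] libraries, 525, 545 and 507 CPM with HC3 and 535, 520.2 and 487 CPM with RSM. In M[IL-4] it had 233, 244 and 227 CPM with vehicle, 536, 572 and 522 with HC3 and 499, 519.7 and 508 with RSM. All inhibitor libraries lay above all vehicle libraries. The HC3 and RSM libraries overlapped in M[0], and in M[IL-4] all HC3 libraries lay narrowly above all RSM libraries. Its fold changes were 3.41 for HC3 and 3.34 for RSM in M[0]. With IL-4 they were 2.32 for HC3 and 2.17 for RSM.

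*Cebpg* (chr7:35046422-35056573, minus strand), a C/EBP family protein that pairs with ATF4, went from 88.3 ± 1.41 CPM in Veh M[0] to 142 ± 9.92 with HC3 and 145 ± 8.12 with RSM. With IL-4 it went from 99.2 ± 3.94 to 154 ± 9.85 and 139 ± 7.74 CPM. The lowest inhibitor library, at 130.9 CPM, was above the highest vehicle library, at 101.9 CPM. HC3 raised *Cebpg* by 0.69 (M[0]) and 0.63 (M[IL-4]) on the log2 scale and RSM by 0.72 and 0.49, all with an FDR of at most 9.28e-06.

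**Figure D1:**
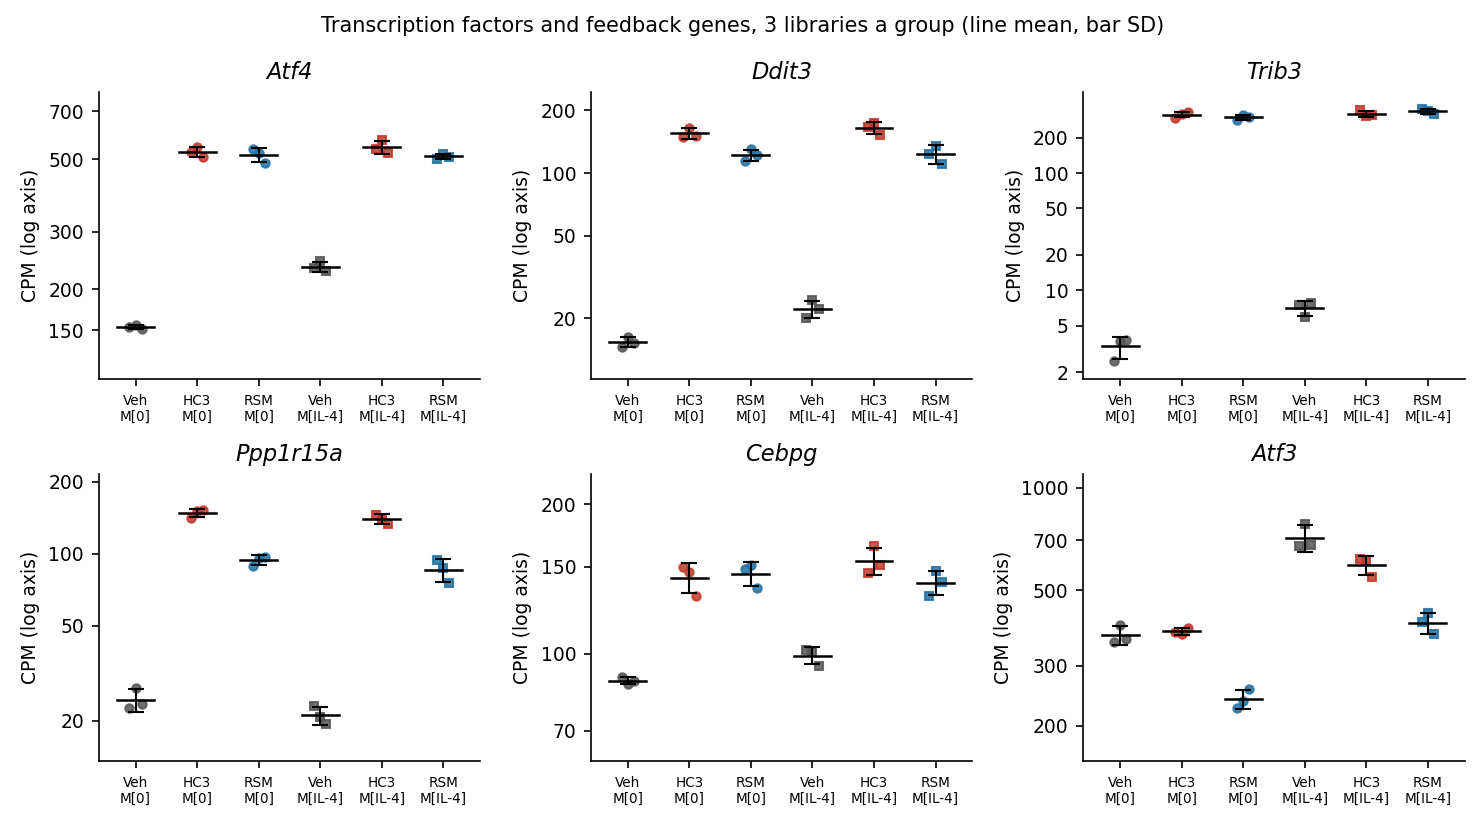
Levels of the 6 transcription factor and feedback genes in every library, in CPM on log axes, with the group on the horizontal axis. Points are libraries (circles M[0], squares M[IL-4]), lines group means and bars SD (n = 3). *Atf4*, *Ddit3*, *Trib3*, *Ppp1r15a* and *Cebpg* are higher in all inhibitor libraries than in all vehicle libraries, whereas *Atf3* is lowest in RSM M[0] and highest in Veh M[IL-4].

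*Atf3* (chr1:191170296-191218039, minus strand), a stress-induced bZIP repressor that is often counted among the ATF4 target genes, had another pattern. In M[0] it had 352, 395 and 358 CPM with vehicle, 377, 371 and 388 CPM with HC3 and 225, 236 and 256 CPM with RSM. The HC3 libraries lay within the vehicle range, and the RSM libraries lay below it. In M[IL-4] the values were 674, 785 and 678 CPM with vehicle, 618, 613 and 548 with HC3 and 403, 429 and 372 with RSM, so that both inhibitors were below vehicle. Libraries wholly below vehicle were found for 25.7% of all genes with RSM in M[0]. In M[IL-4] they were found for 23.7% with HC3 and 22.9% with RSM. RSM lowered *Atf3* by 0.62 on the log2 scale in M[0] (95% interval -0.78 to -0.47, FDR = 2.06e-06) and by 0.83 in M[IL-4] (-0.99 to -0.67, FDR = 5.56e-08). HC3 lowered it by 0.26 in M[IL-4] (FDR = 0.00883), which did not pass without replicate 2 (FDR = 0.0527) or replicate 3 (FDR = 0.0860). In M[0] the HC3 difference was 0.039 (95% interval -0.12 to 0.20, FDR = 0.710), so a change of the size seen for the other effectors lies outside the interval.

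Per kilobase of exon, which allows genes to be compared, *Atf3* was the highest of the 10 members in Veh M[0] at 171 ± 10.6 CPM per kb, and *Trib3* the lowest at 1.56 ± 0.338. *Atf4* had 65.3 CPM per kb there, *Cebpg* 15.7, *Ddit3* 8.97 and *Ppp1r15a* 8.35. In HC3 M[0] the order of levels was *Atf4* (223), *Atf3* (176), *Trib3* (148), *Ddit3* (90.5), *Ppp1r15a* (50.4) and *Cebpg* (25.3 CPM per kb). *Trib3* thus passed from the lowest level of all members to a level close to that of *Atf3*. In bulk RNA, fewer cells that express a gene and less RNA of it per cell cannot be told apart.

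The 4 kinases, each of which responds to a different stress, were compared next. None of them passed the test upward with an inhibitor, and none was called lower at the fold threshold, where 6.11% and 6.51% of all genes were called lower with HC3 and RSM in M[0]. For M[IL-4] those shares were 5.53% and 6.00%. With the FDR alone, *Eif2ak3* (PERK) was lower in all 4 comparisons, *Eif2ak2* (PKR) and *Eif2ak1* (HRI) in 3 each, and *Eif2ak4* (GCN2) in 1. With *Atf3*, that gives 3 (HC3) and 4 (RSM) members lower in M[0] and, for M[IL-4], 4 and 3, beside 21.5%, 20.7%, 19.9% and 18.5% of all genes. Upward, 5 members passed the FDR in each comparison, beside 22.6%, 20.5%, 18.9% and 20.1% of all genes. The same counts came from an unadjusted p under 0.05, but for 1 more member lower with RSM in M[IL-4], and DESeq2 also called none of the kinases.

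*Eif2ak3* (chr6:70844515-70905245, plus strand) had 41.5, 51.4 and 42.5 CPM in Veh M[0], 28.3, 34.6 and 31.9 CPM with HC3 and 32.1, 39.4 and 36.4 CPM with RSM. In M[IL-4] it had 42.8, 50.0 and 39.6 CPM with vehicle, 31.9, 34.7 and 33.1 with HC3 and 34.8, 39.9 and 31.7 with RSM. The inhibitor libraries lay below all vehicle libraries of their polarization, except that RSM and vehicle overlapped in M[IL-4]. Such a gap downward was found in M[0] for 25.6% (HC3) and 25.7% (RSM) of all genes, and in M[IL-4] for 23.7% (HC3). Replicate 2 was the highest library in each of the 6 groups. The log2 fold changes were -0.51 (FDR = 0.00103) and -0.41 (FDR = 0.00717) for HC3 in M[0] and M[IL-4], and -0.33 (FDR = 0.0252) and -0.32 (FDR = 0.0314) for RSM. Neither RSM value passed the FDR without replicate 1 (FDR = 0.0991 and 0.101) or without replicate 3 (FDR = 0.0885 and 0.165). The M[IL-4] value also missed it when only the compared groups were fitted (FDR = 0.0582). Both RSM values passed under all other alternatives, among them the fits with the replicate number as a block. Within each polarization, every RSM library was below the vehicle library with the same replicate number. A gene model on the opposite strand, *Gm43292*, covers 8.05% of the exon length, and reads there could not be told apart.

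*Eif2ak2* (chr17:78852564-78882573, minus strand) had 54.5, 53.7 and 49.1 CPM in Veh M[0], against 33.5, 29.3 and 28.2 CPM with HC3 and 36.6, 35.8 and 35.9 CPM with RSM. HC3 lowered it to 0.579 of vehicle in M[0] (log2 fold change -0.79 ± 0.138, SE), the largest fall among the kinases, and RSM to 0.689 (-0.54 ± 0.137). In M[IL-4], HC3 had 29.3, 35.2 and 30.8 CPM beside 40.6, 43.6 and 44.6 CPM with vehicle (-0.43 ± 0.138, FDR = 0.0181, and 0.0702 without replicate 3). The RSM M[IL-4] libraries held 32.8, 43.7 and 58.2 CPM, the widest spread of any kinase in any group, and their difference from vehicle was 0.062 (95% interval -0.22 to 0.35, FDR = 0.759). Without replicate 3 this difference was -0.14 (FDR = 0.520).

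*Eif2ak1* (chr5:143817788-143904251, plus strand) had 79.7, 76.6 and 73.4 CPM in Veh M[0], 64.6, 68.6 and 64.0 with HC3 and 71.9, 71.9 and 75.1 with RSM. In M[IL-4] it had 73.9, 81.8 and 77.8 CPM with vehicle, 61.2, 66.1 and 67.2 with HC3 and 67.7, 70.5 and 69.5 with RSM. The HC3 libraries lay below all vehicle libraries in both polarizations, and the RSM libraries did so in M[IL-4] but overlapped with vehicle in M[0]. Such gaps were found for 25.6% (HC3, M[0]), 23.7% (HC3, M[IL-4]) and 22.9% (RSM, M[IL-4]) of all genes. HC3 lowered *Eif2ak1* by 0.22 in M[0] (FDR = 0.00462, and 0.0602 without replicate 3) and by 0.26 in M[IL-4] (FDR = 0.00134) on the log2 scale. RSM lowered it by 0.17 in M[IL-4] (FDR = 0.0274). This did not pass under 5 of the alternatives, among them leaving out replicate 2 (FDR = 0.138) or replicate 3 (FDR = 0.177). The RSM difference in M[0] was -0.070 (95% interval -0.19 to 0.052). *Aimp2* and *Ankrd61*, on the opposite strand, cover 11.6% of its exon length together.

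*Eif2ak4* (chr2:118388618-118475234, plus strand) had 36.7, 34.1 and 32.8 CPM in Veh M[0], 31.3, 35.7 and 39.2 with HC3 and 27.3, 29.5 and 30.1 with RSM. In M[IL-4] it had 32.5, 34.5 and 31.6 CPM with vehicle, 30.9, 35.4 and 30.1 with HC3 and 29.3, 28.4 and 28.0 with RSM. The HC3 and vehicle libraries overlapped, and the RSM libraries lay below vehicle, in both polarizations. RSM libraries lay wholly below vehicle for 25.7% of all genes in M[0] and 22.9% in M[IL-4]. With HC3 *Eif2ak4* differed from vehicle by 0.038 in M[0] (95% interval -0.14 to 0.22) and by -0.034 in M[IL-4] (-0.22 to 0.15). With RSM it was lower by 0.25 in M[0] (FDR = 0.0257), but without replicate 1, 2 or 3 the FDR was 0.188, 0.0617 and 0.0545. It was 0.0776 without a count filter and 0.0727 when scaled by library size only. In M[IL-4] the RSM difference was -0.20 (FDR = 0.0750, and 0.0354 with a replicate block within each polarization). Per kilobase of exon, the kinases stood in the order *Eif2ak1* (13.5), *Eif2ak2* (10.3), *Eif2ak3* (7.49) and *Eif2ak4* (4.63 CPM per kb) in Veh M[0], and in HC3 M[0] *Eif2ak1* was still the highest (11.6) and *Eif2ak4* the lowest (4.75).

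**Figure D2:**
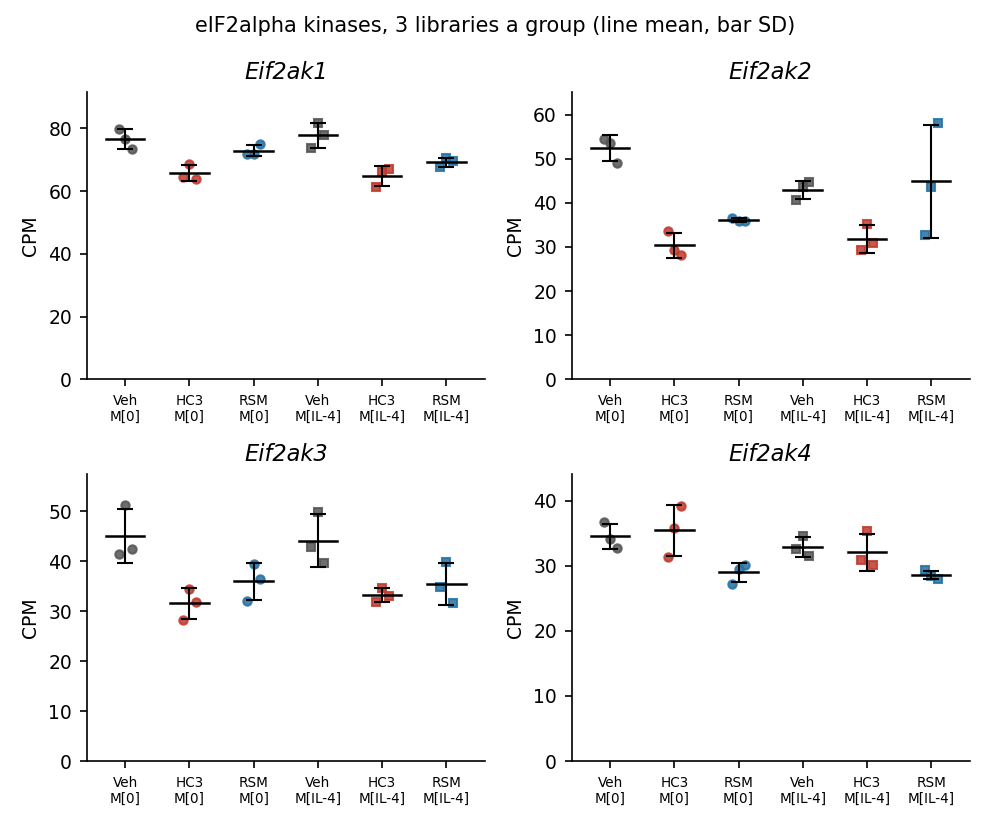
Levels of the 4 eIF2α kinase genes in every library, in CPM on axes that start at 0, by group. Points are libraries (circles M[0], squares M[IL-4]), lines means and bars SD (n = 3); the *Eif2ak2* libraries of RSM M[IL-4] spread from 32.8 to 58.2 CPM, the largest SD in the plot.

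**Figure D3:**
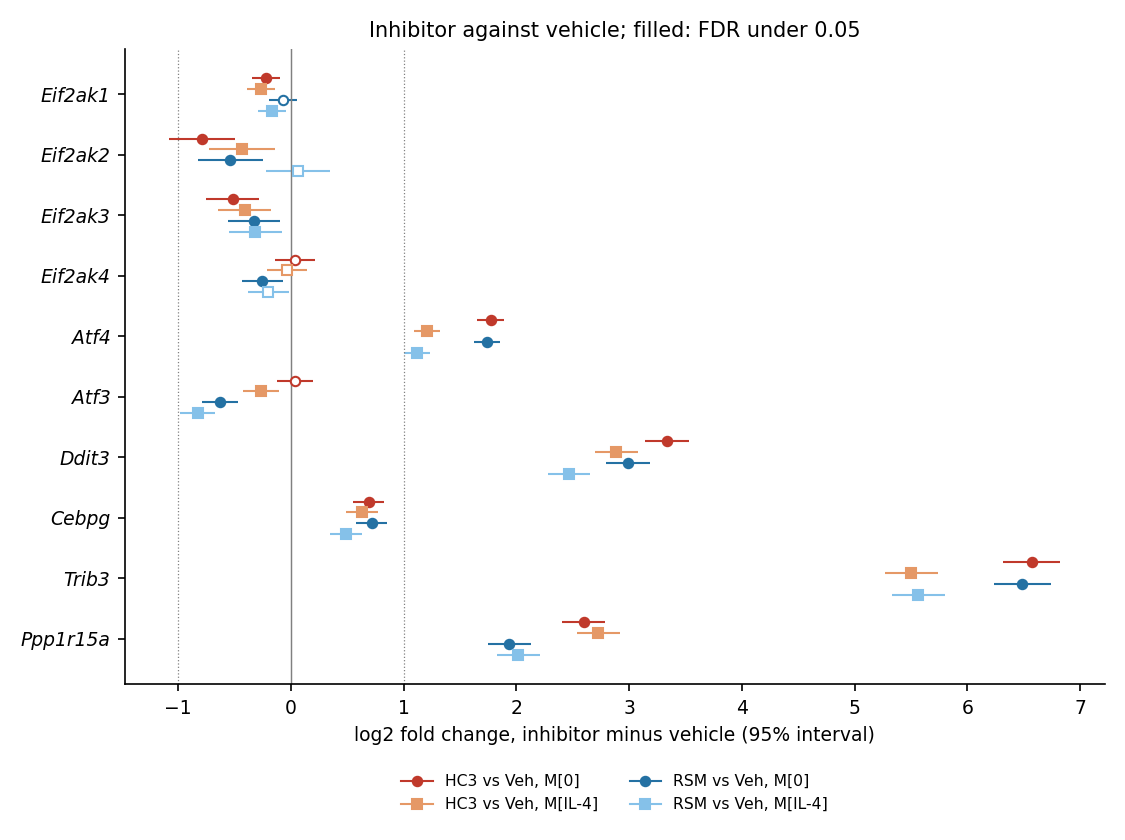
Log2 fold changes of the 10 members, inhibitor minus vehicle, with 95% intervals from the edgeR fit, for HC3 and RSM in M[0] (circles) and M[IL-4] (squares). Filled symbols passed an FDR of 0.05 and dotted lines stand at -1 and 1; *Trib3* lies between 5.50 and 6.57, while the kinases lie between -0.79 and 0.062.

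IL-4 alone was the next comparison, M[IL-4] against M[0] within a treatment. In vehicle-treated cells *Trib3* was called higher, 2.13-fold, which is 1 of 10 members beside 2.83% of all genes, and DESeq2 also called 1. *Atf3*, *Atf4* and *Ddit3* rose by less than the fold threshold, to 1.93, 1.52 and 1.45 times their M[0] level. These 4 passed the FDR beside 16.1% of all genes, with 3 libraries of M[IL-4] above all 3 of M[0] for each, as for 21.1% of all genes. The log2 fold changes were 1.09 ± 0.141 (SE) for *Trib3*, 0.95 ± 0.0758 for *Atf3*, 0.61 ± 0.0548 for *Atf4* and 0.53 ± 0.0959 for *Ddit3*. Without replicate 1 the *Trib3* value was 0.85 and no member was called. *Ppp1r15a* (-0.21, FDR = 0.0910), *Cebpg* (0.17, FDR = 0.0650) and the 4 kinases did not pass, although an unadjusted p was under 0.05 for 5 members upward and 2 downward. *Ppp1r15a* did pass without replicate 1 (-0.36, FDR = 0.0177) and when scaled by library size only (FDR = 0.0371). *Eif2ak2*, at -0.29 (FDR = 0.120), passed when only the compared groups were fitted (FDR = 0.0211) and without a count filter (FDR = 0.0337).

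Under HC3 or RSM, *Atf3* was the only member to pass the FDR between M[IL-4] and M[0], at 0.65 ± 0.0755 (FDR = 5.87e-06) and 0.75 ± 0.0759 (FDR = 6.82e-07), beside 7.22% and 8.79% of all genes upward (downward, no member beside 7.48% and 6.74%). No member was called there by edgeR or DESeq2 (all genes called higher, 1.82% and 2.45%, and lower, 2.14% and 1.81%), and an unadjusted p under 0.05 was reached by 1 and 2 members. *Eif2ak2* under RSM, at 0.31 (FDR = 0.149), passed without a count filter (FDR = 0.0173) and without replicate 1 (0.50, FDR = 0.0191), and its lowest value with 1 replicate left out was 0.076. *Trib3* differed by 0.026 (95% interval -0.15 to 0.20) under HC3 and 0.17 (-0.0089 to 0.35) under RSM. *Atf4* differed by 0.048 (-0.065 to 0.16) and -0.013 (-0.13 to 0.100), and *Ddit3* by 0.084 (-0.085 to 0.25) and 0.013 (-0.16 to 0.18). Those intervals bound the difference that IL-4 made to these 3 mRNAs in cells given an inhibitor.

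Whether an inhibitor's effect differed between M[0] and M[IL-4] was tested as the interaction, the log2 fold change in M[IL-4] minus that in M[0]. It was below 0 for *Trib3*, *Atf4* and *Ddit3* with both inhibitors. For HC3 it was -1.07 (95% interval -1.41 to -0.72, FDR = 0.000552) for *Trib3*, -0.56 (-0.72 to -0.40, FDR = 0.000204) for *Atf4* and -0.45 (-0.71 to -0.19, FDR = 0.0381) for *Ddit3*. For RSM it was -0.92 (FDR = 0.00118), -0.62 (FDR = 3.49e-05) and -0.52 (FDR = 0.0119). These 3 of 10 members passed beside 3.40% and 4.14% of all genes downward, and *Trib3* with HC3 also passed the fold threshold (0.761% of all genes; for RSM no member with edgeR or DESeq2, 0.921%, and 5 members at an unadjusted p under 0.05). Upward no member passed, beside 3.08% of all genes by the FDR with HC3 and 5.05% with RSM (0.481% and 1.22% at the fold threshold). The levels behind this are the vehicle levels, 3.32 and 7.06 CPM of *Trib3* in M[0] and M[IL-4], beside 315 and 321 CPM with HC3. Leaving out replicate 3 took the FDR of *Trib3* to 0.0734 and 0.0772 for HC3 and RSM and that of *Atf4* with HC3 to 0.0502. For *Ddit3* with HC3 no pair of replicates passed the FDR (FDR = 0.105 to 0.355), and with RSM it did not pass without replicate 1 (FDR = 0.0544) or 3 (FDR = 0.253).

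With the replicate number as a block within each polarization, the interaction also passed for *Atf3* (-0.30, FDR = 0.00315, with HC3 and -0.20, FDR = 0.0450, with RSM), for *Cebpg* with RSM (-0.23, FDR = 0.0244) and for *Eif2ak2* with RSM. In the edgeR fit without the block their FDR was 0.102, 0.290, 0.155 and 0.0601. The *Eif2ak2* value was upward, 0.58 (FDR = 0.00272), and it holds the wide RSM M[IL-4] libraries given above. It also passed without a block, with DESeq2 (FDR = 0.0332), without a count filter (FDR = 0.000839) and without replicate 1 (FDR = 0.0282). No interaction of *Ppp1r15a* passed in either fit (0.13 with HC3, 95% interval -0.13 to 0.39, and 0.079 with RSM, -0.18 to 0.34).

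**Figure D4:**
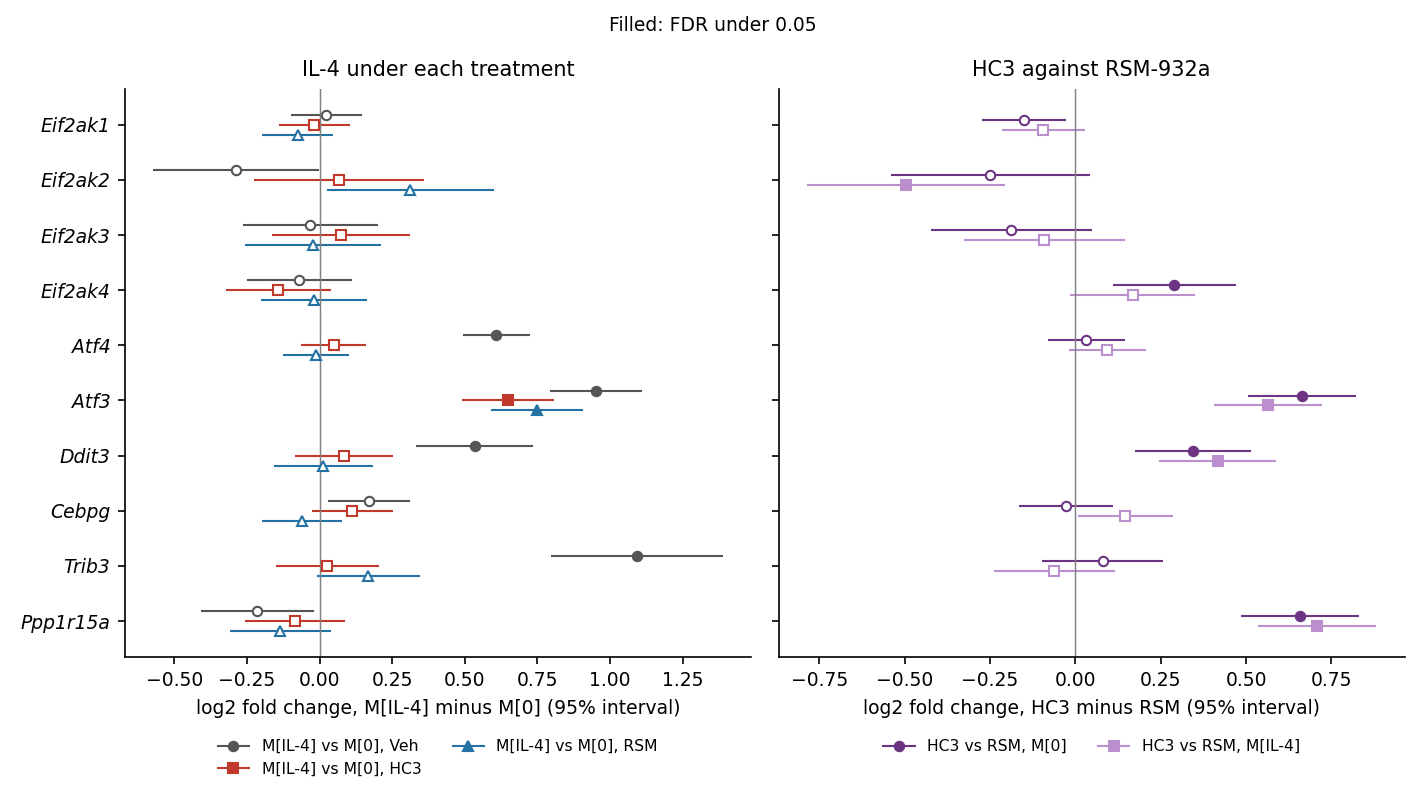
Left, log2 fold changes of the 10 members between M[IL-4] and M[0] under vehicle, HC3 and RSM; right, between HC3 and RSM in each polarization, with 95% intervals, and filled where the FDR was under 0.05. *Atf3* is filled under all 3 treatments at left, *Atf4*, *Ddit3* and *Trib3* under vehicle only, and *Atf3*, *Ddit3* and *Ppp1r15a* are filled in both polarizations at right.

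HC3 and RSM were also set against each other, at the doses used, 250 µM and 5 µM, which differ, so the values compare the treatments as given. *Ppp1r15a*, *Atf3* and *Ddit3* were higher with HC3 than with RSM in both polarizations, and *Trib3*, *Atf4* and *Cebpg* did not pass the test. The HC3-minus-RSM log2 fold change of *Ppp1r15a* was 0.66 in M[0] (FDR = 1.84e-05) and 0.71 in M[IL-4] (FDR = 7.83e-06). For *Atf3* it was 0.66 (FDR = 6.31e-06) and 0.56 (FDR = 3.85e-05). For *Ddit3* it was 0.35 (FDR = 0.00677) and 0.42 (FDR = 0.00159), which without replicate 3 had an FDR of 0.0985 and 0.0747, and in M[0] without replicate 1 of 0.0746. No member reached the fold threshold, with edgeR or DESeq2, where 1.61% of all genes in M[0] and 1.21% in M[IL-4] were called higher with HC3 and 1.44% and 1.59% lower, and 5 members in each polarization had an unadjusted p under 0.05. By the FDR alone, 4 members were higher with HC3 in M[0] and 3 in M[IL-4], beside 6.18% and 4.97% of all genes, and none was lower in M[0], beside 7.43%.

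The difference of *Trib3* between HC3 and RSM was 0.081 in M[0] (95% interval -0.096 to 0.26) and -0.061 in M[IL-4] (-0.24 to 0.12). The difference of *Atf4* was 0.032 (-0.081 to 0.15) and 0.093 (-0.019 to 0.21), and that of *Cebpg* -0.027 (-0.17 to 0.11) and 0.15 (0.0072 to 0.28; with the block within polarization, FDR = 0.0322). Among the kinases, *Eif2ak4* was higher with HC3 in M[0] (0.29, FDR = 0.0307), which without replicate 1, 2 or 3 had an FDR of 0.0571, 0.120 and 0.315, and 0.0817 in a fit of only the compared groups and 0.0805 without a count filter. *Eif2ak2* was lower with HC3 in M[IL-4] (-0.50, FDR = 0.0213), 1 member beside 8.03% of all genes downward, and without replicate 3 the value was -0.24 (FDR = 0.469) and without replicate 2 -0.58 (FDR = 0.0506). Fitted on only the compared groups, its FDR was 0.130. With the block within polarization, *Eif2ak1* and *Eif2ak3* were lower with HC3 in M[0] (FDR = 0.0323 and 0.0358), beside 0.0982 and 0.318 without it, and *Eif2ak1* also passed when scaled by library size only (FDR = 0.0446).

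Other genes of the pathway were taken from 4 lists. The first holds the 11 genes of eIF2, its exchange factor eIF2B and related initiation factors, the machinery on which the kinases act. None was called in the 4 inhibitor comparisons by edgeR or DESeq2, and an unadjusted p under 0.05 was reached upward by 8, 7, 5 and 5 genes. By the FDR, 8 and 6 of 11 passed upward with HC3 and RSM in M[0], beside 22.6% and 20.5% of all genes. For M[IL-4] this was 5 for each, beside 18.9% and 20.1%. The list's medians were 0.28, 0.25, 0.13 and 0.10, beside medians of all genes of 0.023, 0.0053, 0.0063 and 0.019. *Eif2s2*, the β subunit of eIF2, went from 88.6 ± 6.14 CPM in Veh M[0] to 168 ± 15.8 with HC3 and 177 ± 11.2 with RSM, and *Eif5*, which triggers GTP hydrolysis by eIF2, from 222 ± 10.4 to 398 ± 26.5 and 410.0 ± 20.1 CPM. *Eif2a*, a separate initiation factor, was lower with HC3 (-0.24 in M[0] and -0.30 in M[IL-4], FDR = 0.0160 and 0.00393), and *Eif2d* differed by -0.018 to 0.070 over the 4 comparisons and did not pass in any.

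The second list holds 15 genes that control the kinases or the eIF2α phosphatase. In the inhibitor comparisons only *Hspb8*, a small heat shock protein, was called, higher in 3 of 4 (1.26 and 1.61 with HC3 and RSM in M[0] and 1.27 with RSM in M[IL-4]). In those 3 comparisons 5.93%, 5.05% and 5.05% of all genes were called higher, so 1 gene of 15 is near the share. *Hspb8* was at a low level, with a mean under 5 CPM in every group. Its standard errors in those comparisons were 0.302 to 0.334. The list's median log2 fold changes were 0.12, 0.019, 0.040 and 0.052 in the same order as above. *Ppp1r15b*, the constitutive partner of the eIF2α phosphatase, rose by 0.39 to 0.46 in all 4 comparisons, far less than *Ppp1r15a*. *Impact*, an inhibitor of GCN2, rose with HC3 (0.40 without and 0.52 with IL-4) and with RSM in M[IL-4] (0.29). *Nck1*, an adaptor protein, fell with HC3 (-0.35 and -0.49) and with RSM in M[IL-4] (-0.28), and *Prkra*, an activator of PKR, fell with HC3 (-0.39 and -0.29) and with RSM in M[0] (-0.28).

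The third list holds 17 bZIP factors that can pair with ATF4. With HC3 and RSM in M[0], 2 and 4 were called higher and 3 and 1 lower, and in M[IL-4] 2 and 4 higher and 2 and 1 lower, with medians of 0.0054, 0.10, -0.22 and 0.21. Among all genes, 5.93% and 5.05% were called higher and 6.11% and 6.51% lower in M[0]. For M[IL-4] these shares were 4.72% and 5.05% higher and 5.53% and 6.00% lower, so 1 gene of 17 is near the share. *Atf5*, whose mRNA is translated much like that of *Atf4*, rose from 49.9 ± 4.10 CPM in Veh M[0] to 344 ± 21.3 with HC3 and 483 ± 16.2 with RSM. *Nfe2l1*, a factor for proteasome genes, rose from 236 ± 14.0 to 729 ± 36.7 and 710.1 ± 21.3 CPM. Both were also called in M[IL-4], *Atf5* at 1.89 and 2.36 and *Nfe2l1* at 1.46 and 1.26. *Batf3* was called lower in all 4 comparisons (-1.12 and -1.70 with HC3 and RSM in M[0] and, with IL-4, -1.86 and -2.96), from a level of 1.61 CPM in Veh M[0] and 23.6 CPM in Veh M[IL-4]. *Maf* fell with HC3 (-1.80 and -1.16), and with RSM it fell by less in M[0] (-0.52) and rose in M[IL-4] (0.42). Other calls included *Cebpb*, higher with RSM in M[0] (1.01), *Cebpd*, higher with RSM in both (1.25 and 1.92), and *Batf*, higher with RSM in M[IL-4] (1.44).

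The fourth list holds 32 ATF4 target genes of amino acid synthesis and uptake, tRNA charging and stress, and shares *Atf5* with the third. Of the 31 tested (*Fgf21* had too few counts), 18 were called higher with HC3 and 25 with RSM in M[0]. For M[IL-4] these were 14 and 17, and none was called lower. The medians were 1.45, 1.71, 0.93 and 1.06. *Chac1*, which degrades glutathione, had 0.855 ± 0.123 CPM in Veh M[0], 17.4 ± 2.08 with HC3 and 17.9 ± 2.47 with RSM, and 3.11 ± 1.03, 19.5 ± 1.16 and 17.4 ± 2.38 CPM in M[IL-4]. *Slc7a11*, the cystine importer, had 4.78 ± 0.970, 73.8 ± 24.6 and 177 ± 20.3 CPM in M[0] and 13.8 ± 3.17, 43.6 ± 14.3 and 58.9 ± 4.86 CPM in M[IL-4]. *Psat1*, of serine synthesis, rose in M[0] (0.87 with HC3 and 1.38 with RSM), whereas in M[IL-4] it fell with HC3 (-0.43, FDR = 0.0345) and differed by -0.23 with RSM (FDR = 0.267).

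The ATF4 targets were also compared between the polarizations. With vehicle, IL-4 raised 8 of the 31 targets at the fold threshold and 16 by the FDR, and under HC3 or RSM it raised none by either rule with edgeR (DESeq2 called 0 and 1 over both directions, and at an unadjusted p under 0.05, 8 and 1 were higher). Among all genes, IL-4 raised 2.83% at the fold threshold and 16.1% by the FDR with vehicle. By the FDR it raised 7.22% under HC3 and 8.79% under RSM. Downward with IL-4, 2 targets passed the FDR with vehicle, 3 with HC3 and 4 with RSM. The shares of all genes were 14.9%, 7.48% and 6.74%. Of the 31 targets, the count with vehicle was thus below its share. The counts with HC3 and RSM were above theirs, but rest on few genes. At the fold threshold, 1 target was lower with vehicle, *Ndrg1* (-1.17), 0 with HC3 and 1 with RSM, *Slc7a11* (-1.59). Here the shares were 3.83%, 2.14% and 1.81%. The interaction was below 0 by the FDR for 13 targets with HC3 and 15 with RSM, and above 0 for 1 with each, *Ndrg1* (0.67 and 0.50). Among all genes, 3.40% with HC3 and 4.14% with RSM were below 0, and 3.08% and 5.05% above. The list's median interaction was -0.41 and -0.51, beside -0.0077 and 0.012 over all genes. *Slc7a11* had -2.29 and -3.12, *Chac1* -1.69 and -1.90 and *Psat1* -1.30 and -1.61.

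**Figure D5:**
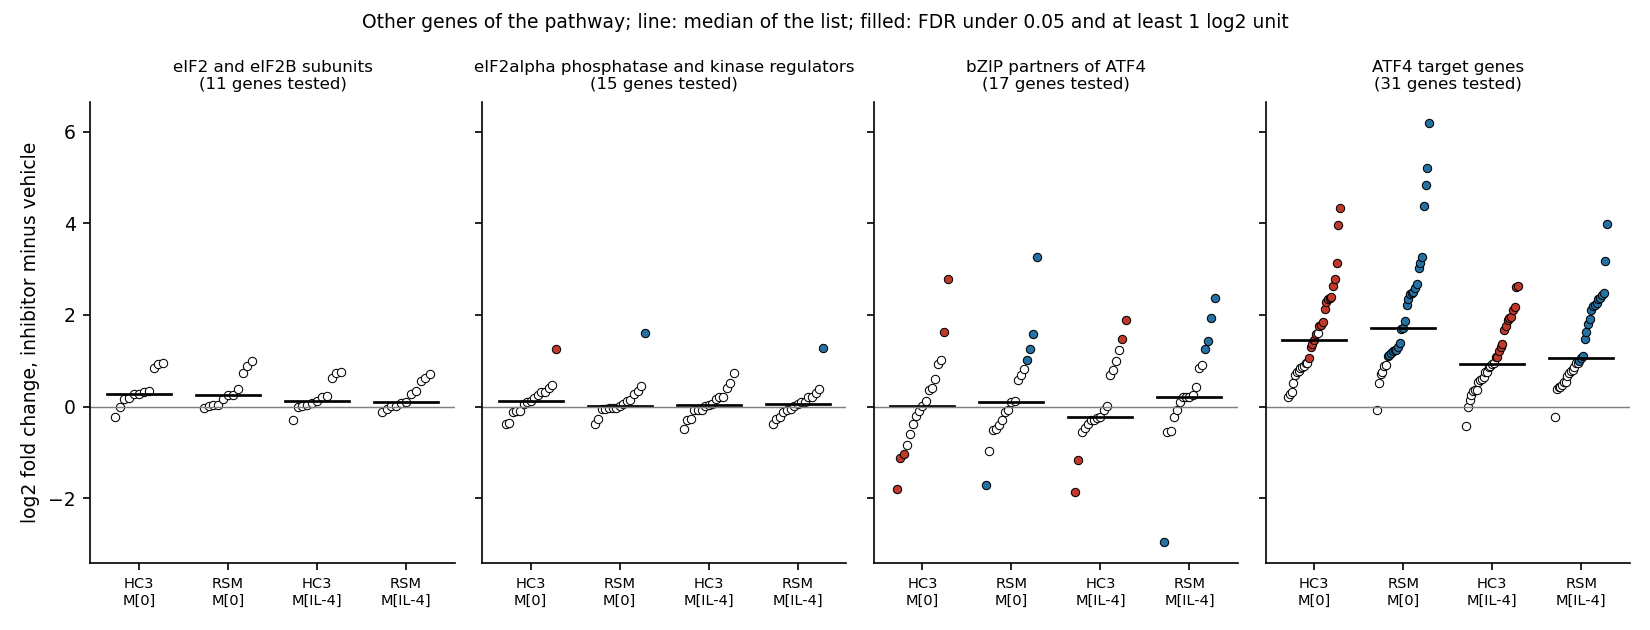
Log2 fold changes, inhibitor minus vehicle, of each tested gene of the 4 pathway lists, sorted within each comparison, with the list's median as a line. Filled points were called; in the ATF4 target list 14 to 25 of 31 genes are filled, all upward, and in the eIF2 and eIF2B list none.

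The genes whose levels followed a member most closely over the 18 libraries were sought among 10046 genes with at least 5 CPM on average. The points share their groups and libraries, so Pearson's r is a description with no test. For *Atf4* the closest were *Nars* (r = 0.995), *Hspa9* (0.994) and *Aars* (0.992). For *Eif2ak2* they were *Sp100* (0.967), *Samd9l* (0.951) and *Parp14* (0.949), and for *Eif2ak3* *Lilr4b* (0.927), *Cerk* (0.922) and *Acox3* (0.921). For *Eif2ak1* they were *Fam49b* (0.941), *G3bp2* (0.940) and *P2rx7* (0.934), and *Eif2ak4* had the weakest partners, *Padi2* (0.838), *Mamdc2* (0.823) and *Scube3* (0.807).

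Cell type markers moved with the treatments too. All 12 macrophage markers were present, and their summed level was 24603 to 25556 CPM in Veh M[0], 9376 to 10409.7 in HC3 M[0] and 17119 to 18445 in RSM M[0]. The same treatments had 16299 to 17406, 8969.8 to 10253 and 14461 to 16911 CPM in M[IL-4]. The sums hide opposite movements. From vehicle to RSM in M[IL-4], mean *Mrc1* went from 1783 to 3090 CPM and *Lyz2* from 4531 to 5903. *Fcgr1* and *Cd14* were also higher. *Csf1r* went from 3508 to 2142 CPM, *C1qa* from 443 to 94.2 and *C1qb* from 1611 to 467. *C1qc*, *Adgre1*, *Cd68*, *Itgam* and *Mertk* were lower too, the last by little. The 10 stromal markers, 9 of them tested, summed to 652 to 1129 CPM in Veh M[0], 1583 to 2171 in HC3 M[0] and 1289 to 1885 in RSM M[0]. The same treatments had 361 to 852, 745 to 1379 and 685 to 1338 in M[IL-4]. *Col1a1* and *Col1a2* made up most of the sum, and mean *Sparc* was 157, 384 and 305 CPM, *Col3a1* 42.2, 115 and 94.2 CPM and *Pdgfrb* 31.4, 49.7 and 52.3 CPM in Veh, HC3 and RSM M[0]. *Pdgfra* was at 22.1, 19.0 and 16.2 CPM in the same groups, *Dcn* at 8.50, 7.91 and 2.99 and *Cxcl12* at 44.1, 65.7 and 22.5. *Dcn* and *Cxcl12* were thus lower with RSM than with vehicle, as they also were in M[IL-4]. *Lum* alone of the list was at 0 in 5 of 6 group means. Neutrophil markers summed to at most 56.8 CPM, with *S100a9* and *Elane* at 0 in all libraries, and the dendritic, B, T and NK, and mast cell lists summed to at most 3.37, 1.11, 0.523 and 3.16 CPM. Of the 10 neutrophil markers, 8 never exceeded 1 CPM, and nearly all of the sum was *Mmp8*. Its means were 11.6, 6.93 and 49.0 CPM in Veh, HC3 and RSM M[0], and 17.8, 8.88 and 22.2 CPM in M[IL-4]. The part of these shifts in the changes of the members was not tested.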

How the data were processed

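Polyadenylated RNA of 18 BMDM cultures, 3 per group, was sequenced by the authors. Per the labels and methods, reads were trimmed with fastp, aligned to GRCm38 with STAR in local mode and filtered on mapping quality, duplicates were marked and kept, and exon reads were summed per gene with featureCounts. The deposited values are raw counts per gene. Tool versions, the annotation release and the strand setting were not given in the sources used here, so reads of overlapping genes on opposite strands cannot be told apart. No deposited column was left unused.

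A gene was kept when 2 or more libraries held 10 or more counts of it (14979 of 55385). edgeR 4.0.16 in R 4.3.3 fitted TMM-normalised counts of all 18 libraries with glmQLFit, without a block, and glmQLFTest gave 11 comparisons with Benjamini-Hochberg adjustment over all genes kept. The code was tested on simulated data. Libraries held 17457796 to 19522255 counts, and counting error is only part of the spread between libraries. The 11 alternatives were DESeq2 1.42.0, 2 fits with the replicate number as a block, fits restricted to the groups compared, all 29054 genes with a count, the 14466 genes of filterByExpr, library sizes without TMM factors, removal of 37 mitochondrial genes, and each replicate left out.

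Groups share replicate numbers in the labels. Over genes averaging at least 5 CPM, the deviations from group means of same-numbered libraries of 1 polarization correlated in 18 of 18 pairs (r = 0.289 to 0.714). Across polarizations, 18 of 27 same-numbered pairs were above 0.1. Of pairs with different numbers, 4 of 36 within a polarization and 17 of 54 across polarizations were above 0.1. The numbers were therefore taken to pair libraries within a polarization.

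The members, the pathway and marker lists and the rule for named genes (all members, and in each list the 2 genes with the highest and the 2 with the lowest mean log2 fold change over the inhibitor comparisons, with a mean of at least 5 CPM in a group) were chosen with earlier results of these data known. Promoters came from RefSeq (GRCm38.p6), where all 10 members matched. The result of 1 gene of the pathway lists is not reported here.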

Additional observations from a re-analysis of the deposited data

Results flagged for a closer look

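The effect of an inhibitor differed between M[0] and M[IL-4], by an edgeR test of the difference itself, for 3 members with each inhibitor. The difference, the log2 fold change in M[IL-4] minus that in M[0], was -0.56 for *Atf4*, -0.45 for *Ddit3* and -1.07 for *Trib3* with HC3. With RSM it was -0.62 for *Atf4*, -0.52 for *Ddit3* and -0.92 for *Trib3*. Both sets use the same vehicle libraries. By the FDR, 3.40% of all genes with HC3 and 4.14% with RSM passed downward. Without replicate 3, the FDR of *Trib3* was 0.0734 with HC3 and 0.0772 with RSM, and that of *Atf4* with HC3 was 0.0502. For *Ddit3* with HC3, leaving out any 1 replicate took the FDR above 0.05. With RSM, leaving out replicate 1 or replicate 3 did so for *Ddit3*.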

How the results depend on the processing

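Over 1180 values of single members under the alternatives, 1091 kept direction and side of the FDR threshold, 38 no longer passed, 21 newly passed and 30 changed sign. The count of members called in the 4 inhibitor comparisons was 4 under every alternative. Leaving out 1 replicate gave 0 to 1 members called for IL-4 with vehicle, 0 to 1 for the HC3 interaction and 0 to 1 for the RSM interaction. With the replicate number as an additive block, *Cebpg* also passed for IL-4 with vehicle (FDR = 0.0361). The pairing moved no other member across the FDR threshold than this and those given beside the results, *Atf3* (HC3 interaction) and *Eif2ak2* (RSM interaction) among them. Of the values that changed sign, those scaled by library size only were 0.015 for *Eif2ak4* (HC3, M[IL-4]), -0.033 for *Eif2ak1* (IL-4, vehicle), -0.0013 for *Atf4* and -0.022 for *Trib3* (IL-4, HC3) and -0.048 for *Ddit3* (IL-4, RSM). Without a count filter, *Eif2ak1* (IL-4, HC3) had 0.0051. The *Eif2ak3* RSM interaction was -0.0064 with DESeq2, -0.0075 without a filter and -0.0017 without mitochondrial genes. Leaving out 1 replicate gave ranges across 0 of -0.079 to 0.15 for *Eif2ak4* and -0.0080 to 0.089 for *Atf3* (HC3, M[0]), -0.14 to 0.21 for *Eif2ak2* (RSM, M[IL-4]) and -0.021 to 0.071 for *Eif2ak1* (IL-4, vehicle). For IL-4 under HC3 they were -0.064 to 0.011 for *Eif2ak1*, -0.029 to 0.20 for *Eif2ak2* and -0.061 to 0.080 for *Trib3*, and under RSM -0.092 to 0.061 for *Eif2ak3*, -0.086 to 0.022 for *Eif2ak4*, -0.051 to 0.024 for *Atf4* and -0.039 to 0.084 for *Ddit3*. For the HC3 interaction they were -0.060 to 0.028 for *Eif2ak1*, -0.16 to 0.062 for *Eif2ak4* and -0.13 to 0.048 for *Cebpg*, and for the RSM interaction -0.019 to 0.065 for *Eif2ak3*, -0.052 to 0.11 for *Eif2ak4* and -0.016 to 0.16 for *Ppp1r15a*. The cause of these shifts was not tested. The number of libraries per group, 3, limits what can be told of small differences.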

Other observations

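With vehicle, IL-4 also moved genes of the pathway lists, of which the named ones that were called are given here. *Batf3*, a bZIP factor of dendritic cell development, rose from 1.61 ± 0.422 to 23.6 ± 3.96 CPM (log2 fold change 3.87 ± 0.299, SE). *Chac1*, which degrades glutathione, rose by 1.86 ± 0.264. *Psat1*, of serine synthesis, rose by 1.67 ± 0.164, *Atf5* by 1.10 ± 0.0916, and *Slc7a11*, the cystine importer, by 1.53 ± 0.288. *Ndrg1*, a stress- and hypoxia-responsive gene, fell by 1.17 ± 0.0789 and *Maf* by 1.38 ± 0.0789. Under HC3 and RSM, *Batf3* rose with IL-4 by 3.13 and 2.62.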
